A study of Homo sapiens with 6 samples.

Results

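The genes described here are the regulators that set the activity of NRF2 and its relatives in A375 cells: the activators NFE2L2 (which encodes NRF2), NFE2L1 and NFE2L3, the competing repressor BACH1, the small MAF partners MAFF, MAFG and MAFK, and the ubiquitin ligase genes KEAP1, CUL3 and BTRC. They were chosen by name, as the rows of the authors' deposited comparison that carry these symbols, and all 10 of the 28395 genes listed there were found. A375 is an established human melanoma cell line, wild type by its labels. The cells received olive oil at 0.01% as the control (OLO) or the same dose of ozonated olive oil (OZO) for 6 h. The latter is an oil whose double bonds have reacted with ozone. RNA was sequenced from 3 libraries per group, 6 in all. Both groups were therefore the same line in the same oil base, and they differed in whether the oil had been ozonated.

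NRF2 is made continuously and destroyed continuously. KEAP1, a sensor with reactive cysteines, holds NRF2 on the scaffold protein CUL3 so that it is ubiquitinated and sent to the proteasome, and BTRC, also called β-TrCP, recognises phosphorylated NRF2 as part of another ligase. When oxidants or electrophiles modify KEAP1, NRF2 escapes, enters the nucleus, pairs with a small MAF protein and binds the antioxidant response element (ARE) of genes for glutathione synthesis, NADPH production and heme and iron handling. BACH1 pairs with the same small MAFs on the same elements and represses genes such as HMOX1 until heme or oxidants release it. The small MAFs have a DNA-binding region and no activating region of their own, so 2 of them together can also occupy an ARE without activating it. Because much of this control acts on protein stability and location, which RNA sequencing does not see, the values below describe transcript levels only.

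MAFF and BACH1 were higher and CUL3 was lower in OZO by the criterion used throughout, an adjusted p under 0.05, so the DNA upstream of these 3 genes is shown first. The sequences are the 250 bases before the 5′ end of each gene in RefSeq, build GRCh38.p14, read 5′ to 3′ on the strand of the gene. Capitals mark letters that match either of 2 motifs looked for on both strands, the ARE core TGACNNNGC and the AP-1 type site TGANTCA, where N is any base. The letters of the motifs can overlap in a promoter that holds both. The windows are chr22:38201744-38201993 on the plus strand for MAFF, chr21:29298672-29298921 on the plus strand for BACH1 and chr2:224585364-224585613 on the minus strand for CUL3.
MAFF: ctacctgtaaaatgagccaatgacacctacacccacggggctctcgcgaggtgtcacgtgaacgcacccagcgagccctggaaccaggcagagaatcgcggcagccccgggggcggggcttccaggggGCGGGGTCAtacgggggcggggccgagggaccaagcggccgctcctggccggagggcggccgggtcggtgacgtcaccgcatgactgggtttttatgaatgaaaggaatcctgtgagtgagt
BACH1: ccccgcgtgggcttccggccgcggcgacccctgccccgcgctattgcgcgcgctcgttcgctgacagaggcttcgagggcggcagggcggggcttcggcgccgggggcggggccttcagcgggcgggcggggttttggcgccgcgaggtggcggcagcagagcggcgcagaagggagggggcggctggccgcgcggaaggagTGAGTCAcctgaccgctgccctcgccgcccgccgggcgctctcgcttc
CUL3: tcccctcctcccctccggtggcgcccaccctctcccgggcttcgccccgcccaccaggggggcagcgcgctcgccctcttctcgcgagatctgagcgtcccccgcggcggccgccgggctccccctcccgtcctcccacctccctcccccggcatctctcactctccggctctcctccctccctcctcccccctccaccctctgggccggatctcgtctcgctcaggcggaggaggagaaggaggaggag

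The capitals in the MAFF window are an ARE core read on the other strand, as TGACCCCGC, from base -122 to base -114 before the start. The BACH1 window holds an AP-1 type site, TGAGTCA, from base -48 to base -42, and the CUL3 window matched neither motif. Of the 10 genes, 8 had at least 1 listed start, with 15 windows in all, and 3 windows held a match. The remaining matches lay before another listed start of KEAP1 (chr19:10502772-10503021, minus strand), where an ARE core stood from base -54 to base -46 and another from base -31 to base -23. Over all 35116 windows of this length in the RefSeq table, 10.9% held the ARE core and 6.57% the AP-1 type site. Such matches are a description of letters, since binding was not measured in these cells.

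At a geometric mean library size of 18409903 reads, recovered from the lowest values of the deposited table, every member was well covered, with an implied mean of 272 reads per library for MAFK, the least covered, and 4412 for NFE2L1, the most. A read number per group is a mean on the log scale that combines a gene’s mean expression with its fold change. It is set at the same library size in both groups, so it is not a raw count. It is also approximate because the fit weighted the libraries. Single libraries were not analysed here, so the error given is the standard error (SE) or the 95% interval of the log2 fold change, OZO minus OLO, and whether individual libraries of the groups overlapped cannot be said. The labels do not say whether libraries came from separate cultures, so p-values measure only the spread between these samples. In bulk RNA, fewer cells of a type and less RNA per cell cannot be told apart. Of the 10 members, 2 were called higher and 1 lower. Among all genes, 7.04% were called in either direction, 3.98% higher and 3.06% lower, and among the 13773 genes that averaged 10 or more reads, which include every member, 13.6% were called. The members' median log2 fold change was 0.16, against -0.01 over those 13773 genes. Taken over the whole table the median was 0.19, because 7012 genes without a read in any library are each listed at 0.33.

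**Figure D1:**
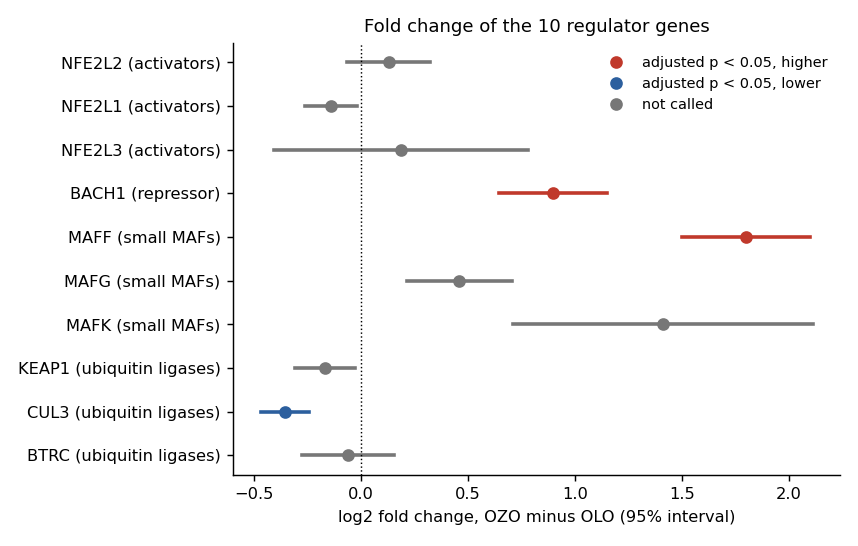
Log2 fold change (x axis, OZO minus OLO, 3 libraries per group) of each of the 10 genes (y axis, with its role), with bars for the 95% interval and colours for the call at an adjusted p under 0.05. MAFF at 1.80 and BACH1 at 0.90 are called higher, CUL3 at -0.36 is called lower, and the wide bars of MAFK and NFE2L3 show their larger standard errors.

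Of the 3 small MAF genes, MAFF was called higher. MAFF, on chr22:38201994-38216511 (NCBI Gene 23764), went from 384 implied reads under OLO to 1339 under OZO. Its log2 fold change was 1.80 (SE 0.117, 95% interval 1.5 to 2.1), a 3.48-fold rise with an adjusted p = 0.0054 by limma, the 106th smallest p of all genes. MAFF is the small MAF best known for being induced by cytokines and stress in other cell types.

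MAFK, on chr7:1530702-1543043 (NCBI Gene 7975), was counted at an implied 166 reads under OLO and 444 under OZO. Its log2 fold change of 1.41 was the largest among the members after that of MAFF, but its SE of 0.273 was larger than that of 89.2% of the 500 genes nearest in mean expression. Its 95% interval ran from 0.71 to 2.11, and its adjusted p of 0.050004 lay just outside the criterion. By p it was gene 2001 of the table, while the last gene called was gene 1999 with an adjusted p = 0.04994. With its SE, only a change of at least 2.66-fold could have been called, and the observed change was 2.66-fold to the same precision.

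MAFG, on chr17:81918270-81931244 (NCBI Gene 4097), was counted at an implied 1449 reads under OLO and 1993 under OZO. Its log2 fold change was 0.46 (SE 0.096, 95% interval 0.21 to 0.71), a 1.38-fold difference with an adjusted p = 0.0596. It therefore was not called, although its interval did not reach 0. When the p-values were adjusted over the 13773 genes with at least 10 reads alone, MAFK (adjusted p = 0.0258) and MAFG (adjusted p = 0.031) were both called higher, which made 5 members called, beside 20.6% of those genes under the same adjustment.

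Among the small MAFs the fold changes were unequal. The intervals of MAFF and MAFG did not overlap, nor did those of MAFK and MAFG, whereas those of MAFF and MAFK did. The difference between 2 genes was not itself tested, since the table holds no covariance between them. In reads, MAFF stood at 0.265 of MAFG in OLO and at 0.671 in OZO, and MAFK went from 0.115 to 0.222 of MAFG. Per kb of the canonical transcript of GENCODE 44, MAFG made up 57.6% of the small MAF sum in OLO, MAFF 32.5% and MAFK 9.90%, while in OZO the shares were 36.2% for MAFG, 51.8% for MAFF and 12.1% for MAFK. The summed level went from 497 to 1089 reads per kb, 2.19-fold. Per kb of all exons of each gene, a longer measure that affects MAFF most, the sum was 1.88-fold higher in OZO, but MAFG kept the largest share, with 72.3% in OLO and 53.0% in OZO, and MAFF went from 17.9% to 33.2%. MAFF thus came from below MAFG to above it on one scale and stayed below it on the other.

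Genes that overlap a small MAF gene were looked at because the use of strand in counting is not stated. TMEM184B, which overlaps MAFF, had a mean of 456 reads and a log2 fold change of -0.01 (adjusted p = 0.959). The lncRNA MILIP, which overlaps MAFG, had 18.7 mean reads and a log2 fold change of -1.22 (adjusted p = 0.092). MAFK overlaps the lncRNA LOC100128653 (21.9 mean reads, log2 fold change 0.88, adjusted p = 0.249) and TMEM184A (10.2 mean reads, log2 fold change 0.57, adjusted p = 0.693). None of these neighbours was called by limma, MILIP alone had an unadjusted p under 0.05, and those of MAFG and MAFK had few reads beside the MAF genes themselves.

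BACH1, on chr21:29298922-29361894 (NCBI Gene 571), was the other member called higher. Its implied reads went from 1024 in OLO to 1907 in OZO, a log2 fold change of 0.90 (SE 0.098, 95% interval 0.64 to 1.15) or 1.86-fold, with an adjusted p = 0.0141. BACH1 encodes the heme-sensing repressor that shares its DNA elements and its small MAF partners with NRF2. The repressor's transcript therefore rose while NFE2L2 was not called, and their intervals did not overlap. In reads, BACH1 stood at 0.334 of NFE2L2 in OLO and at 0.568 in OZO, a 1.70-fold shift of the ratio, and relative to NFE2L1 it went from 0.221 to 0.454.

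The transcripts of the activators moved little. NFE2L2, on chr2:177230303-177264727 (NCBI Gene 4780), was counted at an implied 3071 reads under OLO and 3359 under OZO. Its log2 fold change was 0.13 (SE 0.075, 95% interval -0.06 to 0.32, adjusted p = 0.267), so the interval holds fold changes from 0.956 to 1.25. A change of 1.31-fold or more could have been called with this SE. The scale matters to its sign, which was negative, at -0.056, once the median of all genes, unread ones included, was subtracted. MIR3128, which lies within NFE2L2, had under 1 mean read.

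NFE2L1, on chr17:48048359-48061545 (NCBI Gene 4779), encodes NRF1, an activator that sits in the membrane of the endoplasmic reticulum and, once cut free, drives proteasome genes. It was the most highly counted member, at an implied 4635 reads under OLO and 4199 under OZO. The log2 fold change was -0.14 (SE 0.047, 95% interval -0.26 to -0.02), and the adjusted p of 0.183 did not pass. For this gene the smallest change that could be called was 1.18-fold, and the observed difference was 1.10-fold.

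NFE2L3, on chr7:26152198-26187137 (NCBI Gene 9603), encodes NRF3, a relative that is expressed in fewer tissues. Its implied reads were 739 in OLO and 841 in OZO, and its log2 fold change was 0.19 (SE 0.231, 95% interval -0.41 to 0.78, adjusted p = 0.621). The SE exceeded that of 94.6% of the 500 genes nearest in mean expression, so that only a change of at least 2.29-fold could have been called. The interval spans fold changes from 0.754 to 1.72, and a rise as large as that of MAFF lies outside it.

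On the degradation side, CUL3 was lower in OZO. CUL3, on chr2:224470150-224585363 (NCBI Gene 8452), is the scaffold that joins KEAP1 and many other adaptors to the ubiquitin-transferring enzyme. Its implied reads fell from 2725 in OLO to 2128 in OZO, a log2 fold change of -0.36 (SE 0.044, 95% interval -0.47 to -0.24) with an adjusted p = 0.0178. In linear terms that is a drop by 21.9%, the smallest change among the called members and the one with the smallest SE of all 10. In reads, NFE2L2 stood at 1.13 of CUL3 in OLO and at 1.58 in OZO, and their intervals did not overlap.

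KEAP1, on chr19:10486125-10503356 (NCBI Gene 9817), pointed the same way as CUL3 but was not called. It was counted at an implied 1175 reads under OLO and 1046 under OZO, a log2 fold change of -0.17 (SE 0.055, 95% interval -0.31 to -0.03) and an adjusted p = 0.176. BTRC, on chr10:101354048-101557313 (NCBI Gene 8945), was counted at an implied 989 reads under OLO and 948 under OZO. Its log2 fold change was -0.06 (SE 0.084, 95% interval -0.28 to 0.16, adjusted p = 0.665), which leaves out a change of 1.35-fold, the smallest that could be called for this gene. The intervals of NFE2L2 and KEAP1 overlapped. In all, the intervals of 7 members kept clear of 0 before any adjustment, those of BACH1, MAFF, MAFG and MAFK above it and those of NFE2L1, KEAP1 and CUL3 below it. Among the 13773 genes, 35.6% had such an interval, 18.0% above 0 and 17.6% below it.

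**Figure D2:**
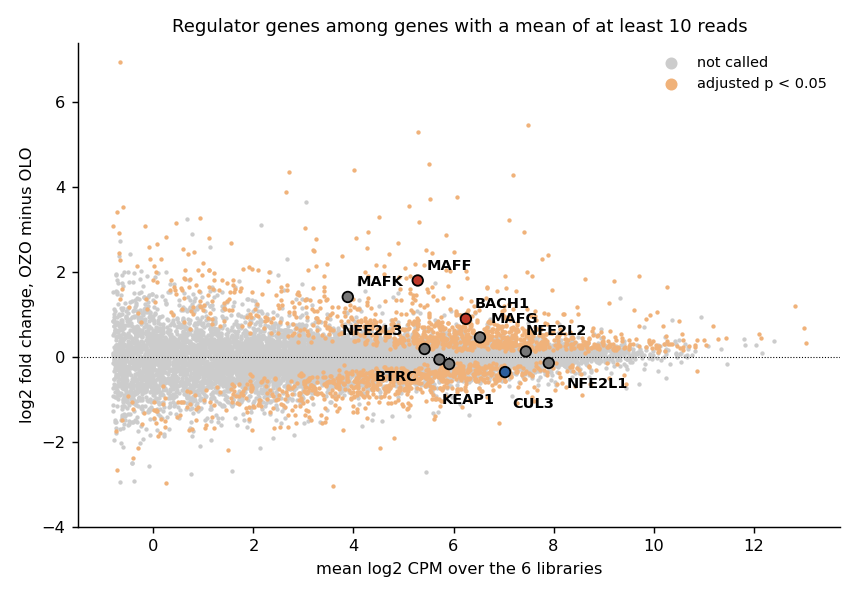
Log2 fold change (y axis, OZO minus OLO) against mean log2 CPM over the 6 libraries (x axis) for the 13773 genes that averaged 10 or more reads, in orange where the adjusted p was under 0.05 and in grey otherwise, with the 10 regulators as larger points, red for called higher, blue for called lower and dark grey for not called. MAFF and MAFK stand above the bulk of genes of like expression, and CUL3 lies just below it.

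Per kb of canonical transcript, the order of the 10 genes changed mainly through MAFF. In OLO the order began with NFE2L2 at 1255 reads per kb and NFE2L1 at 958, followed by KEAP1 at 458 and CUL3 at 403. MAFG stood at 286, NFE2L3 at 198, BACH1 at 182, BTRC at 164, MAFF at 162 and MAFK at 49.2. MAFF was thus the ninth of the members in OLO, next to BTRC and BACH1, and the neighbours from NFE2L3 to MAFF lay close together.

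In OZO the order was NFE2L2 at 1373, NFE2L1 at 868, MAFF at 564, KEAP1 at 408, MAFG at 394, BACH1 at 340, CUL3 at 315, NFE2L3 at 225, BTRC at 157 and MAFK at 131 reads per kb. MAFF had become the third, and CUL3 had gone from the fourth place to the seventh. A group level carries no error of its own in the deposited table, so neighbours in either order cannot be told apart by a test. Per kb of all exons, NFE2L2 was the fifth in OLO and the sixth in OZO, because its annotated exons span 14975 bases against 2446 in the canonical transcript, and MAFF went from the ninth to the fifth.

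**Figure D3:**
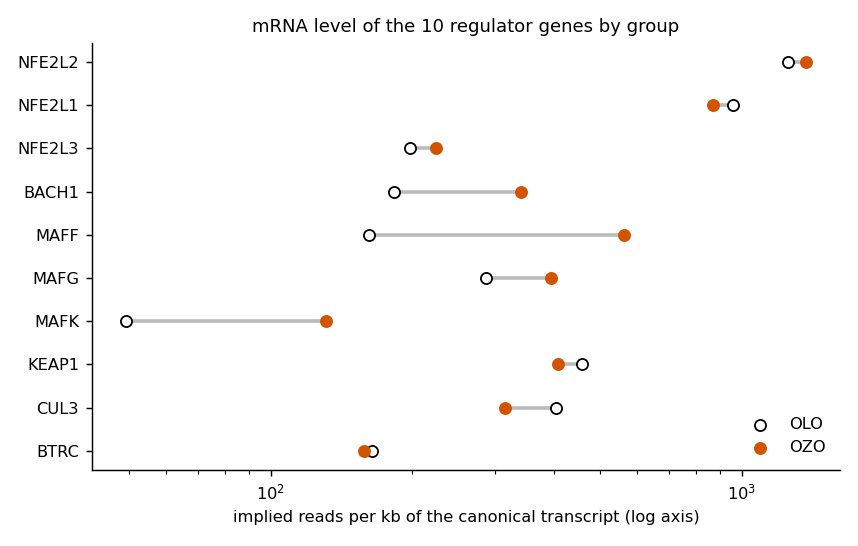
Implied reads per kb of the canonical transcript (x axis, log scale) in OLO (open points) and OZO (filled points) for each of the 10 genes (y axis), without error bars because the level of a single group has none in the deposited table. MAFF shows the longest line, from 162 to 564, while NFE2L2, from 1255 to 1373, hardly moves.

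The genes that act on these regulators were examined in lists written from general knowledge. Of 15 genes of the degradation machinery, SKP1 alone was called, beside 13.6% of the 13773 genes. SKP1 is the adaptor that brings BTRC to its ligase, and it was higher by a log2 fold change of 0.29 (SE 0.024, adjusted p = 0.0086). The other 14 genes, which include the cullin CUL1, the RING subunit RBX1, the kinases GSK3A and GSK3B and the BTRC paralog FBXW11, ran from -0.16 to 0.29, and the median of the list was 0.06. CUL3 was thus the only gene called lower among the members and this list.

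Among 10 proteins that bind KEAP1 or modulate NRF2, 2 genes were called higher and 1 lower, with a median of -0.04. Of the 13773 genes, 13.6% were called in either direction. At an unadjusted p under 0.05 by limma, 2 genes of this list were higher and 5 lower, beside 18.0% and 17.6% of the 13773. SQSTM1, the autophagy adaptor p62 that can take KEAP1 away from NRF2, went from an implied 12729 to 40050 reads, a log2 fold change of 1.65 (SE 0.231, adjusted p = 0.0235). CDKN1A, the cell cycle inhibitor p21 that can shield NRF2 from KEAP1, rose by 1.06 on the log2 scale (SE 0.049, adjusted p = 0.0030). PALB2, a DNA repair protein with a KEAP1-binding motif, fell by 0.71 (SE 0.069, adjusted p = 0.011). AMER1, a further KEAP1-binding protein, was at -0.64 (adjusted p = 0.0945) and was not called.

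Of 11 genes that process NRF1, the product of NFE2L1, 3 were called higher and none lower by limma. Among the 13773 genes, 7.75% were called higher. At an unadjusted p under 0.05, 7 of the 11 were higher and 2 lower, beside 18.0% and 17.6% of the 13773 genes. The median was 0.27. NGLY1, the enzyme that removes sugar chains from NRF1 on its way out of the endoplasmic reticulum, was higher by 0.60 (SE 0.097, adjusted p = 0.0329). OGT, which attaches single sugar units to nuclear and cytosolic proteins, was higher by 0.58 (SE 0.093, adjusted p = 0.032), and STT3B, a subunit of the enzyme that first adds the sugar chains, by 0.28 (SE 0.053, adjusted p = 0.0464). DDI2, the protease that cuts NRF1 into its active form, stood at -0.27 (adjusted p = 0.189) and was not called.

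Of 31 proteasome subunit genes, the best known targets of NRF1, every one had a positive fold change, between 0.10 and 0.35, with a median of 0.22. Among the 13773 genes, 6780 had a positive fold change. PSMC4 (0.26, adjusted p = 0.0371), PSMD11 (0.28, adjusted p = 0.0454) and PSMA5 (0.14, adjusted p = 0.0495) were called, which is 3 of 31 beside 7.75% called higher among the 13773 genes. The intervals of 21 subunits lay above 0, as did those of 18.0% of the 13773 genes. The NFE2L1 transcript itself was at -0.14 in the same libraries.

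Among other members of the CNC and MAF families, BACH2, the lymphoid paralog of BACH1, was called higher, from 57.0 to 84.4 implied reads, a log2 fold change of 0.56 (SE 0.104, adjusted p = 0.0438). NFE2, MAFA and NRL had implied means of fewer than 10 reads, and MAF stood at -1.21 with a wide SE of 0.788 (adjusted p = 0.314). Of 7 coregulators that NRF2 recruits or meets on DNA, EP300, a histone acetyltransferase, was called higher at 0.62 (SE 0.036, adjusted p = 0.0045). It was the only gene of the 7 called, beside 13.6% of the 13773 genes, and the median of the list was 0.02.

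The targets of the regulators moved in 1 direction where they were called. Of 26 NRF2 target genes, 11 were called higher and none lower by limma, beside 7.75% called higher among the 13773 genes. At an unadjusted p under 0.05, 16 were higher and 1 lower, beside 18.0% and 17.6% of those genes. In this list 24 genes had a positive log2 fold change, and the median was 0.42, against -0.01 over genes with at least 10 reads. Some of these genes were picked by the study from the same libraries, so the list is not independent evidence of its direction. HMOX1, a heme-degrading enzyme and a classic gene under BACH1 repression, went from an implied 175 to 4053 reads, a log2 fold change of 4.53 (SE 0.580, adjusted p = 0.0194).

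The glutathione synthesis genes GCLM (log2 fold change 1.003, SE 0.056, adjusted p = 0.0042) and GCLC (0.87, SE 0.059, adjusted p = 0.0060) had the smallest p-values of the list. PRDX1, a peroxide-reducing enzyme (0.31, adjusted p = 0.0082), TKT, an enzyme of the pentose phosphate pathway (0.34, adjusted p = 0.0097), OSGIN1, a growth-inhibiting oxidative stress gene (2.19, adjusted p = 0.0118), SRXN1, which repairs oxidised peroxiredoxins (1.04, adjusted p = 0.0123), and TXNRD1, thioredoxin reductase (0.72, adjusted p = 0.0156), were also called higher. NQO1, a quinone reductase often used as the marker of NRF2 activity, was at 0.38 with an SE of 0.270 and was not called (adjusted p = 0.355). SLC7A11, the cystine importer, was at 0.56 (SE 0.202, adjusted p = 0.217), and it too was not called.

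Of 13 genes that BACH1 is known to repress, 6 were called higher and none lower by limma, beside 7.75% called higher among the 13773 genes. The median was 0.56. At an unadjusted p under 0.05, 7 were higher and 0 lower, against the same shares of 18.0% and 17.6%. Of the 13, 10 are also in the NRF2 target list, so the lists do not separate the regulators. All 6 called genes are among these 10, and no gene outside the NRF2 target list was called. SLC40A1, the iron exporter, stood at -1.54 (SE 0.885, adjusted p = 0.259), with only 15.1 implied reads in OLO and 4.85 in OZO. Its mean was under 10 reads, unlike the other 12 genes, so it is not among the 13773. The other genes without a call ran from -0.16 to 0.56. What part BACH1, NRF2 or another factor has in these changes was not tested.

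**Figure D4:**
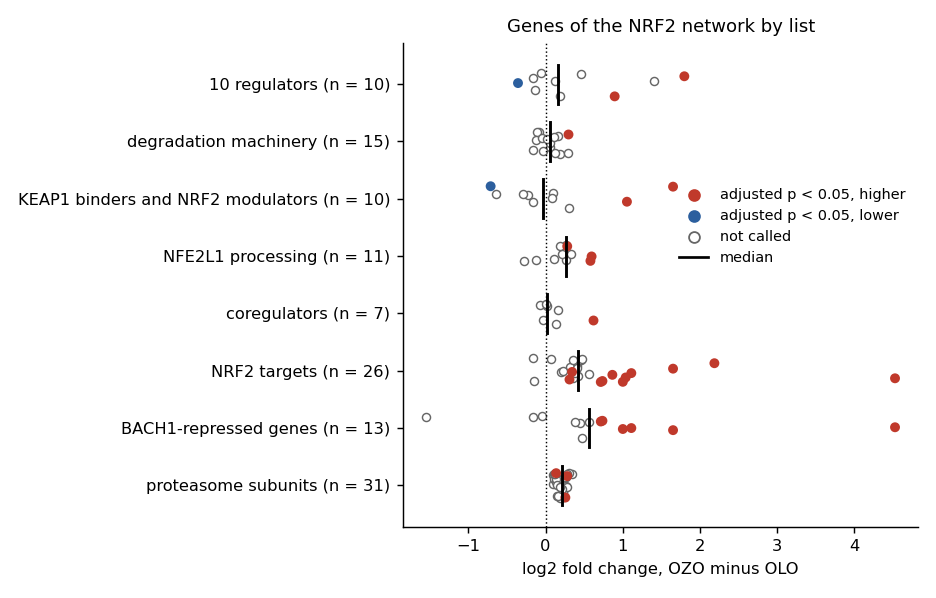
Log2 fold change (x axis, OZO minus OLO) of every gene in the 10 regulators and 7 lists around them (rows), with filled points for genes called at an adjusted p under 0.05 and a black bar for the median. The regulators hold calls on both sides of 0, whereas the calls among the NRF2 targets, the genes repressed by BACH1 and the proteasome subunits all lie above it, and a gene in more than 1 list is drawn in each.

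Markers of the melanocyte lineage and of other cell types were read beside these results. SOX10, which marks neural crest derived cells, was counted at an implied 1265 reads under OLO and 667 under OZO (log2 fold change -0.92, adjusted p = 0.271), and MITF had 539 and 461. The pigment genes were low in both groups, with 28.6 and 46.8 reads for MLANA, at most 11.3 for TYRP1, PMEL and DCT, and no read in any library for TYR. Of the 8 lineage markers and the 10 markers of keratinocytes, fibroblasts and leukocytes none was called by limma, and 0 had an unadjusted p under 0.05. Among the 10 markers of other cell types, KRT5, COL3A1, PTPRC and CD3E each had under 2 implied reads in either group. The others were detected, with mean implied reads of 603 for CD68 and 469 for KRT10. LUM had a mean of 87.6, KRT14 of 77.5, COL1A1 of 22.3 and DCN of 5.12.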

How the data were processed

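RNA was extracted with Trizol from A375 cells, and directional paired-end libraries were sequenced. Per the labels and the study's methods, the authors aligned reads to hg38 with HISAT2 2.1.0, counted them with featureCounts 2.1.1 and fitted limma-voom 3.58.1. Normalization factors, weighting and strand use in counting are not given in the sources used here. No filter on low counts is stated either, and the 28395 genes adjusted over include 7012 without a read in any library. The authors' deposited table holds log2 values, namely the fold change and the mean log2 CPM of each gene, a score, which is limma's moderated t, and the p-value with its Benjamini-Hochberg adjustment. These are the authors' own comparison, used here because values per library were not analysed. No other test across libraries was run.

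The SE was the fold change divided by t, with the degrees of freedom (5.02 to 5.24) solved from t and p. Implied reads came from the mean log2 CPM, the fold change and the library size recovered from voom's offset of 0.5. Lengths came from GENCODE 44 and promoters from RefSeq. Python 3.11.15, scipy 1.17.1 and, for tests on simulated data, R 4.3.3 with limma 3.58.1 were used.

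The genes and lists were chosen with earlier results of these data known. The text names the 10 members, every called gene of the 5 lists of regulators' partners, HMOX1, GCLM, NQO1, SQSTM1, TXNRD1 and SLC7A11, the 5 further called target genes with the smallest p, and the 3 proteasome genes with the smallest p. A result that falls under this rule is left out here. AMER1, DDI2, MAF, SLC40A1 and the uncalled genes listed with the degradation machinery were named after their values were seen. Likeness of pattern was not computed, since there is only 1 comparison.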

Additional observations from a re-analysis of the deposited data

How the results depend on the processing

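The number of members called, 3 at an adjusted p under 0.05, was 1 (MAFF) at 0.01, 5 at 0.1, 1 (MAFF) with a minimum of 2-fold, 5 with the adjustment over genes with at least 10 reads, and 5 after the median of all genes was subtracted (centring). Those called higher went from 2 to 1, 4, 1 and 4 under the first 4 of these settings, and those called lower from 1 to 0 at 0.01, 0 with the 2-fold minimum and 3 with the centring, which added NFE2L1 (adjusted p = 0.019) and KEAP1 (adjusted p = 0.0229). The centring on all genes turned NFE2L2 from 0.13 to -0.056 (adjusted p = 0.612). By construction it shifts every gene by the median of 0.19 that the unread genes set. The shares of all genes called at 0.01, at 0.1, with the 2-fold minimum or after centring were not computed. The member counts at those settings therefore have no background beside them. MAFK passed when centred on the genes with at least 10 reads (adjusted p = 0.0494) or on the 500 genes nearest in mean expression (adjusted p = 0.0445). With the adjustment over genes with at least 10 reads, chosen for the lists after seeing the data, the calls among genes for NFE2L1 processing went from 3 to 5 and those among proteasome subunits from 3 to 10. It tests fewer genes, and under it 20.6% of the 13773 genes with at least 10 reads were called. With the adjustment over all genes, 13.6% of them were. The other 9 members kept their sign under the 3 centrings run, with NFE2L3 at 0.00092 under that on all genes.

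No paired analysis was possible because the deposited file gives group contrasts and single libraries were not analysed here. The fit with a replicate block and the fits that leave out each library in turn could not be run either, so how far 1 library carries a value is unknown. Depth limits no member strongly. The SE does, for NFE2L3 and MAFK.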
